A study of Mus musculus with 9 samples.

Results

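Methionine and one-carbon metabolism was followed in the liver through 9 genes chosen by name, Mat1a, Gnmt, Pemt, Gamt, Ahcy, Bhmt, Cbs, Cth and Shmt1, out of 17442 genes in the deposited table. All 9 were present and passed the filter on low values. Liver RNA had been sequenced from male C57BL/6 mice with fatty liver disease. The wild-type group (Msr1+/+) held 4 mice, and the other group held 5 mice labelled Msr1-/-, which lack macrophage scavenger receptor 1, a receptor for modified lipoproteins on macrophages. Both groups had eaten a diet high in fat and cholesterol for 16 weeks, so no liver on another diet enters any comparison here. The age of the mice, and whether the groups were littermates, is not given in the sources used here. The comparison asked how the absence of the receptor bears on the liver during fatty liver disease, here for this pathway.

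The methionine cycle turns methionine into S-adenosylmethionine, the methyl donor of the cell, and hepatocytes carry it out at a high rate. Each methyl transfer leaves S-adenosylhomocysteine, which is split to homocysteine. Homocysteine is either methylated back to methionine, with a methyl group from betaine or folate, or passed through transsulfuration to cysteine and glutathione. The liver also uses the methyl groups to make phosphatidylcholine and creatine, and the pathway is well known for its link to fat storage in hepatocytes.

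The targeted gene was read first. Msr1 stood at 256, 202, 460 and 194 normalised reads (reads divided by a size factor of the liver) in wild-type livers 1 to 4, and at 157, 153, 209, 186 and 172 in Msr1-/- livers 1 to 5. The groups overlapped, and no liver lacked Msr1 reads. The means were 278.0 ± 124.7 (SD, n = 4) and 175.4 ± 23.0 (SD, n = 5). An exact permutation test, two-sided, gave p = 0.0476. That p was kept under 0.05 when Msr1-/- 3 was left out (exact p = 0.0286) and not when any other single liver was: the exact p was 0.107 without wild type 1 or 3, 0.0714 without wild type 2 or 4, and 0.0857 without Msr1-/- 1, 2, 4 or 5. A total per gene cannot tell which part of the transcript was read, so the genotypes here are those given by the labels.

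Depth was 15006773 to 18238932 reads per liver. Wild type 3 stood apart, with 88.7 on the first principal component (41% of variance) against -27.6 to 8.30 in the other livers, so results are also given without it. The 10 hepatocyte markers summed to 1387886 normalised reads in wild type 3, 1679864 to 2022351 in the other wild-type livers and 1674226 to 2366523 in Msr1-/-. Albumin made up 61.5% to 73.1% of that sum, and over the 10 markers 6 log2 differences were positive and 4 negative (median 0.01). The 14 markers of Kupffer cells and macrophages summed to 20155, 8921 to 11478 and 5500 to 7346 in the same order, with all 14 log2 differences negative and no marker at 0 in any liver. The 8 markers of stellate cells and fibroblasts summed to 10408, 3837 to 4471 and 3492 to 4148, also with all 8 negative and none at 0, and without wild type 3 these ranges overlap. The 7 markers of B and plasma cells summed to 578 to 971 in wild type and 212 to 388 in Msr1-/- (7 of 7 negative), and those of neutrophils to 133 to 293 and 59.1 to 119 (3 of 3 tested negative, with Retnlg at 0 in at least 1 liver). Cholangiocyte markers summed to 619 to 1684, the highest in wild type 3, and 251 to 548 (3 of 3 tested negative, with Krt19 and Cftr at 0 in at least 1 liver). Limma called 1 marker lower in each of the macrophage, B and plasma cell and cholangiocyte lists. The adipocyte markers summed to 80.2 to 879 in wild type, the highest in wild type 3, and 205 to 698 in Msr1-/-. Of these, 2 of 2 tested were positive, with Adipoq at 0 in at least 1 liver, and limma called 1 higher. Their median log2 difference, 1.72, joins 2 unlike genes. Cfd ran from 9.5 to 65.5 in wild type and from 59.1 to 465 in Msr1-/-. Fabp4 overlapped, at 67.4 to 864.5 and 146 to 282. Adipoq, which was not tested, ran from 1.055 to 3.138 and from 0 to 1.06. No marker was called in the other lists. The part of these cell types in the values of the 9 genes was not tested. In bulk liver, fewer cells of a type and less RNA per cell cannot be told apart.

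The mean level of 8 of the 9 genes was higher in Msr1-/- than in wild type, and no gene passed the main test. Of these 8, Cbs and Gamt had log2 differences of 0.04 and 0.03, and that of Gamt was -0.26 without wild type 3. Limma called 0 of 9 at a Benjamini-Hochberg adjusted p under 0.05, where 1.37% of 12937 tested genes were called, 0.665% higher in Msr1-/- and 0.703% lower. Shmt1 and Mat1a came closest. For these 2 genes every Msr1-/- liver lay above every wild-type liver, and 0 of 9 showed the opposite. The genotypes did not overlap for 7.29% of tested genes, 3.30% higher and 3.99% lower in Msr1-/-. The same 2 genes stayed apart without wild type 3, where the shares were 7.46% higher and 6.71% lower.

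Mat1a and Shmt1 also had an unadjusted limma p under 0.05, as did 7.30% of tested genes in that direction. On whole reads recovered from the table, edgeR called 0 of the 9 (1.43% of tested genes, 0.572% higher and 0.858% lower), with 2 at an unadjusted p under 0.05. DESeq2 called Mat1a and Shmt1 higher (5.98% of tested genes, 2.37% higher and 3.60% lower). Limma with array weights called Shmt1 higher (4.10% of tested genes, 2.14% higher and 1.96% lower). Limma without wild type 3 called Shmt1 higher too (4.91% of tested genes, 2.59% higher and 2.32% lower).

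The log2 difference, Msr1-/- minus wild type, was positive for 8 of 9 genes (median 0.25) and for 52.7% of all tested genes (median 0.02). Of the 8, Cbs at 0.04 and Gamt at 0.03 changed sign in 5 and 8 of 22 alternatives. Quantile normalisation lowered the difference of Bhmt to 0.32, of Gnmt to 0.13, of Mat1a to 0.20, of Pemt to 0.09 and of Cth to 0.16, and turned those of Cbs and Gamt negative.

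Mat1a encodes the liver form of methionine adenosyltransferase, which makes S-adenosylmethionine. The gene lies on chromosome 14 (41105035 to 41124412 in mm10, plus strand). Wild-type livers 1 to 4 held 24794, 22900, 22790 and 20519 normalised reads, and Msr1-/- livers 1 to 5 held 29069, 29540, 35149, 37541 and 25198. The genotypes did not overlap, but the lowest Msr1-/- liver was close to the highest wild-type liver. The means were 22751 ± 1749 (SD, n = 4) and 31299 ± 4977 (SD, n = 5), a 1.36-fold difference (log2 0.45, SE 0.16, 95% interval 0.10 to 0.80). The limma adjusted p was 0.197, and the unadjusted two-sided exact permutation p was 0.0159, the smallest that the splits of 9 livers give. DESeq2 gave an adjusted p of 0.0259 at a log2 difference of 0.46. Under quantile normalisation the limma adjusted p was 0.663.

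Gnmt, Pemt and Gamt encode methyltransferases that use the product of Mat1a. Gnmt encodes glycine N-methyltransferase, an abundant liver enzyme that disposes of surplus methyl groups by making sarcosine (chromosome 17, 46725664 to 46729168, minus strand). Its wild-type values were 8445, 6348, 11221 and 8734, and its Msr1-/- values 7769, 8094, 13301, 12799 and 11547. Wild type 3 was the highest wild-type liver for Gnmt, and the groups overlapped. The log2 difference was 0.29 (95% interval -0.18 to 0.77, limma adjusted p = 0.586), and 0.45 with array weights (limma adjusted p = 0.249). It was 0.15 without wild type 2, the lowest of the 9 livers (limma adjusted p = 0.804).

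Pemt encodes phosphatidylethanolamine N-methyltransferase, which makes phosphatidylcholine by methylation, a route mainly of the liver (chromosome 11, 59970614 to 60046489, minus strand). Wild-type livers held 4992, 4788, 4053 and 4615, and Msr1-/- livers 4137, 4886, 5483, 6097 and 5724. In Pemt, 3 Msr1-/- livers lay above the highest wild-type liver, and the other two lay within the wild-type range. The difference of 0.18 on the log2 scale had a 95% interval of -0.11 to 0.48 (limma adjusted p = 0.590). Pemt varied least among the 9 genes, with a coefficient of variation of 13.9% over all livers.

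Gamt encodes guanidinoacetate N-methyltransferase, the last step of creatine synthesis (chromosome 10, 80258151 to 80261012, minus strand). Wild-type values were 3108, 4726, 1847 and 4724, and Msr1-/- values 1781, 3187, 4772, 4766 and 3696. Wild type 3 and Msr1-/- 1 stood low together, and wild type 2 and 4 stood close to Msr1-/- 3 and 4. The means of 3601 ± 1396 (SD, n = 4) and 3641 ± 1246 (SD, n = 5) differed by far less than the spread, and the 95% interval of the log2 difference was wide, -0.71 to 0.77 (limma adjusted p = 0.981). Without wild type 3 the log2 difference was -0.26 (limma adjusted p = 0.644).

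Ahcy encodes adenosylhomocysteinase, which splits the by-product of methylation into homocysteine and adenosine (chromosome 2, 155059310 to 155074497, minus strand). It stood at 6787, 8148, 2987 and 6563 in wild type and at 3506, 4341, 7023, 8645 and 4601 in Msr1-/-. As for Gamt, wild type 3 and Msr1-/- 1 were the lowest livers of their genotypes. Ahcy was the only one of the 9 genes with a negative log2 difference, -0.11 (95% interval -0.83 to 0.61, limma adjusted p = 0.926). It was -0.42 without wild type 3 (limma adjusted p = 0.363) and turned positive, 0.06 and 0.04, without wild type 2 or Msr1-/- 1.

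Ahcy and Gamt are shown with their promoters because their levels moved alike in most livers. With each gene centred on its mean log2 value, the root mean square distance between both profiles was 0.25 over 9 livers, the fourth smallest of 36 pairs, although each gene spread widely (SD 0.55 for Ahcy and 0.57 for Gamt). The pairs that were closer, such as Pemt with Cth at 0.17, were of genes that varied little. Ahcy and Gamt lay on opposite sides of their means in wild type 1 (0.30 and -0.13) and Msr1-/- 5 (-0.26 and 0.12). Hepatocyte markers Alb, Apoa1, Ttr, Trf, Fah and Serpina1a were also lowest in wild type 3 and Msr1-/- 1 within each genotype. Apob, Cps1, Hnf4a and Tat did not share that pattern. The pair was not compared with genes outside the 9, and a link between their promoters was not tested. The sequences are the 250 bases before the start of each gene, 5′ to 3′ on the gene's strand, from RefSeq on GRCm38.p6 (chr2:155074498-155074747 for Ahcy and chr10:80261013-80261262 for Gamt, both minus strand), and capitals mark motif matches.
Ahcy: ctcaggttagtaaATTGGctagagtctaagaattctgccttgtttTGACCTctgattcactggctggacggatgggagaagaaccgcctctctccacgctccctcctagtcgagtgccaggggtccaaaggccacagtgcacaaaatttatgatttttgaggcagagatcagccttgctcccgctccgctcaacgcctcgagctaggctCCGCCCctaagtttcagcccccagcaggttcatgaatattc
Gamt: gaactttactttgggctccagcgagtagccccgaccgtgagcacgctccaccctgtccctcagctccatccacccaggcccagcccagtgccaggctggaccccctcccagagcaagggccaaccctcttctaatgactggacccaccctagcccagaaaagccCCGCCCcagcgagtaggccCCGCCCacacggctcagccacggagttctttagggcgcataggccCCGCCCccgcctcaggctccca
The GC box, GGGCGG or CCGCCC, occurred 3 times in the Gamt window and 1 time in that of Ahcy, and 32.7% of 32851 such windows held it on either strand. Ahcy also held 1 CCAAT box (CCAAT or ATTGG, in 33.8% of windows) and 1 nuclear receptor half-site (AGGTCA or TGACCT, in 14.0%). The TATA box (TATAAA or TTTATA, in 12.4% of windows) was searched too and is in neither window. No match overlapped another, and a match is a description of the letters only. Promoter windows were matched for 7 of the 9 genes.

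Bhmt encodes betaine-homocysteine methyltransferase, which returns homocysteine to methionine with a methyl group from betaine (chromosome 13, 93616675 to 93637961, minus strand). Wild-type livers held 15710, 11437, 9061 and 20566, and Msr1-/- livers 13478, 15427, 26028, 36958 and 12849. This was the widest spread among the 9 genes, with the highest liver, Msr1-/- 4, 4.08 times above the lowest, wild type 3. The difference in means, 14194 ± 5061 (SD, n = 4) against 20948 ± 10416 (SD, n = 5), was smaller than the spread between Msr1-/- livers, and 3 of 5 lay within the wild-type range. The log2 difference was 0.50 (95% interval -0.25 to 1.26, limma adjusted p = 0.554), and it was 0.26 without Msr1-/- 4 and 0.31 without wild type 3. Bhmt and its neighbour Bhmt2 are close relatives, so some reads could belong to either. Bhmt2 had a log2 difference of 0.07. Gm15622, a gene on the opposite strand, shares 187 of the 5758 exon bases of Bhmt and stood at 3.88 ± 1.83 in wild type and 14.2 ± 16.1 in Msr1-/-.

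Cbs and Cth encode cystathionine beta-synthase and cystathionine gamma-lyase, the consecutive enzymes of transsulfuration. Cbs (chromosome 17, 31608894 to 31637238, minus strand) stood at 4941, 5169, 6291 and 6656 in wild type and at 5575, 4799, 5675, 6362 and 7239 in Msr1-/-. The groups overlapped over nearly their whole range, with a log2 difference of 0.04 (95% interval -0.29 to 0.36, limma adjusted p = 0.945) that was -0.11 under quantile normalisation. The interval spans 0.820-fold to 1.29-fold. Leaving out wild type 3 or 4 gave 0.08 or 0.11, and leaving out wild type 1, wild type 2 or Msr1-/- 5 gave -0.03, -0.01 or -0.04.

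Cth (chromosome 3, 157894248 to 157925077, minus strand) stood at 4419, 3374, 3817 and 3485 in wild type and at 3436, 5047, 4197, 4682 and 5114 in Msr1-/-. In Cth, 3 Msr1-/- livers lay above wild type 1, the highest wild-type liver, and Msr1-/- 1 lay near the lowest. The log2 difference was 0.25 (95% interval -0.07 to 0.56, limma adjusted p = 0.471).

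Shmt1 encodes the cytosolic serine hydroxymethyltransferase, which moves a carbon unit from serine to folate (chromosome 11, 60788104 to 60811718, minus strand). Wild-type livers held 2719, 1961, 1412 and 2369 normalised reads, and Msr1-/- livers 2990, 3313, 3163, 3328 and 3332. Every Msr1-/- liver was above every wild-type liver, and the Msr1-/- livers lay close together, with a coefficient of variation of 4.62% against 26.6% in wild type. The means were 2115 ± 562 (SD, n = 4) and 3225 ± 149 (SD, n = 5), a 1.57-fold difference (log2 0.65, SE 0.17, 95% interval 0.28 to 1.02). The limma adjusted p was 0.0868, and the unadjusted two-sided exact permutation p was 0.0159, the smallest possible.

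In limma without array weights, whether Shmt1 was called turned on wild type 3, its lowest liver. Without that liver the wild-type mean was 2350 ± 379 (SD, n = 3), the log2 difference was smaller at 0.47, and the limma adjusted p was 0.0429, a call. DESeq2 on all 9 livers gave an adjusted p of 0.0205 and limma with array weights 0.0228, while edgeR gave 0.108. Removal of any other single liver left the limma adjusted p between 0.0646 and 0.194. Shmt1 shares 184 of its 3883 exon bases with Smcr8 on the opposite strand, and Smcr8 stood at 329 ± 41 in wild type and 323 ± 30 in Msr1-/-.

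**Figure D1:**
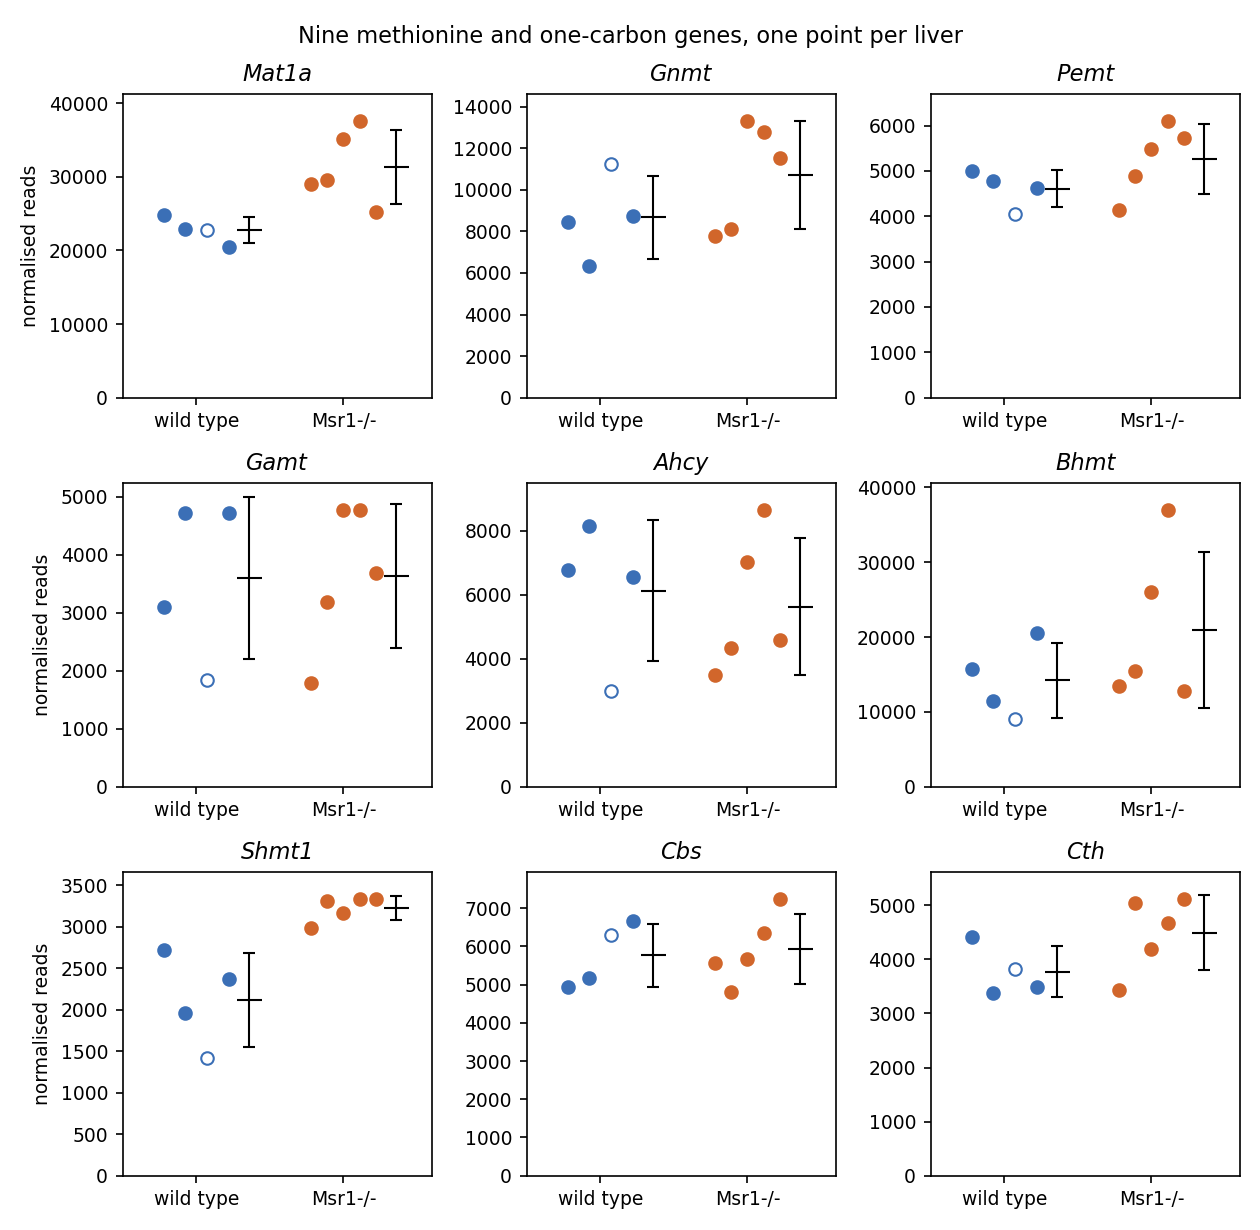
Normalised reads (vertical axes, from 0) of the 9 genes in 4 wild-type (blue) and 5 Msr1-/- (orange) livers, one point per liver, with wild type 3 as the open point and mean ± SD in black. Mat1a and Shmt1 are the genes whose groups do not overlap.

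**Figure D2:**
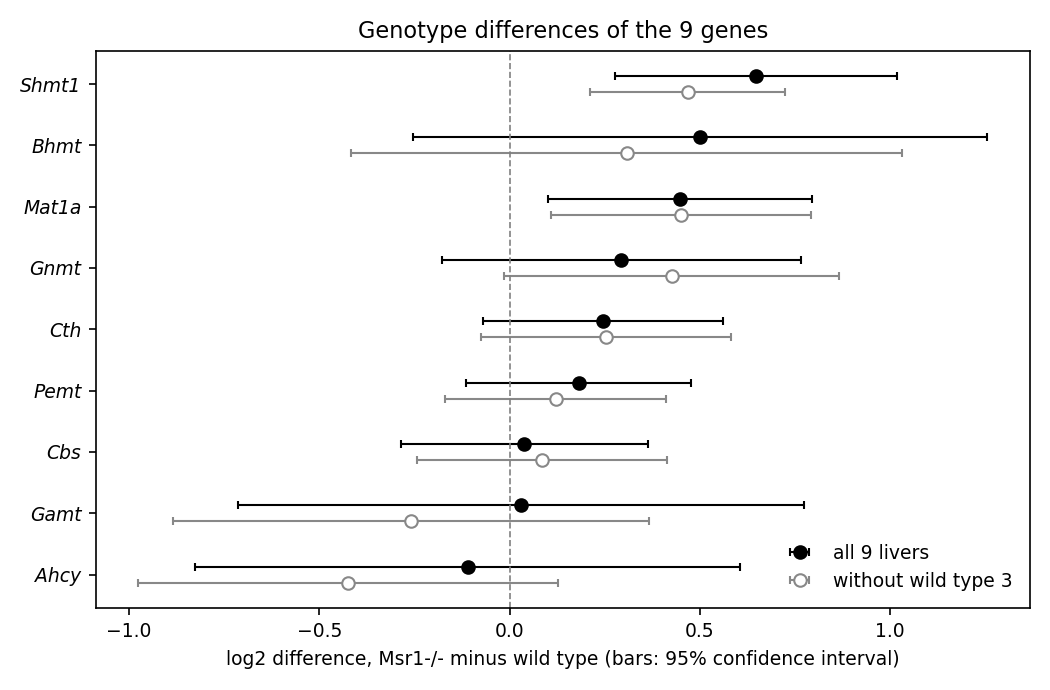
Log2 differences, Msr1-/- minus wild type, with 95% confidence intervals from limma, for all 9 livers (black) and without wild type 3 (grey, open). The intervals of Shmt1 and Mat1a lie above 0 in both fits before adjustment over all genes, and those of the other 7 genes include 0.

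Liver by liver, the Msr1-/- livers 3 and 4 stood high in most of the 9 genes. Msr1-/- 4 was above the gene's mean log2 value for all 9 genes and was the highest liver for Bhmt, Mat1a, Pemt and Ahcy. Msr1-/- 3 was above the mean for 8 genes and the highest for Gnmt and Gamt, and Msr1-/- 5 was the highest for Cbs, Cth and Shmt1. No wild-type liver was the highest for any of the 9 genes.

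Wild type 3 was the lowest liver for Bhmt, Pemt, Ahcy and Shmt1, and it was above the mean for 2 genes, Gnmt and Cbs. Msr1-/- 1 was likewise above the mean for 2 genes, Mat1a and Shmt1, and its lowest value relative to the mean was for Gamt, at -0.93 on the log2 scale. Wild type 2 was the lowest for Gnmt and Cth. As a share of all normalised reads of a liver, the 9 genes together made up 0.404% to 0.501% in wild type and 0.451% to 0.637% in Msr1-/-. Msr1-/- 3 and Msr1-/- 4, at 0.629% and 0.637%, lay above the rest.

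**Figure D3:**
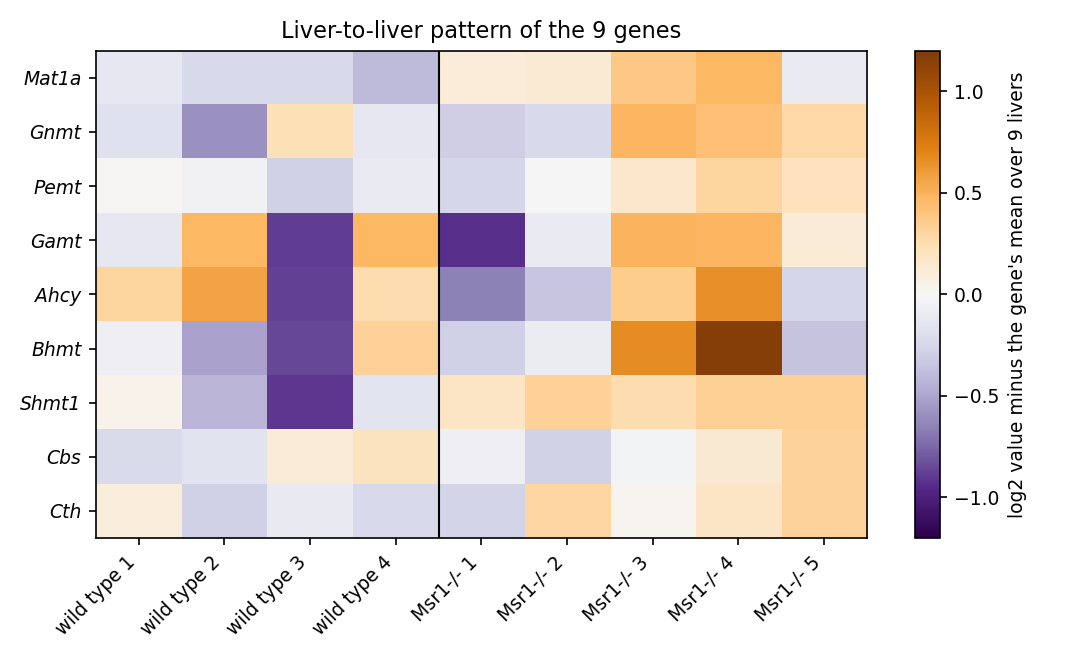
Log2 value of each gene (rows) in each liver (columns) minus the gene's mean over 9 livers, with a black line between the genotypes. Msr1-/- 4 is above the mean in all 9 rows, and wild type 3 is lowest for Bhmt, Pemt, Ahcy and Shmt1.

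Levels between genes were compared per kilobase of exon, with exon lengths from GENCODE M21, which may differ from the annotation used for counting. Gnmt and Mat1a had the highest levels, at 8131 ± 2036 and 7930 ± 1677 (SD, n = 9) normalised reads per kilobase. Gnmt was above Mat1a in 4 of 9 livers, so their order was not separated. Mat1a was above Bhmt, the next at 3117 ± 1519, in 9 of 9 livers. Gamt (2509 ± 850), Pemt (2365 ± 328) and Ahcy (2084 ± 728) followed within each other's spread. Cth at 1496 ± 245 was above Cbs at 782 ± 111 in 9 of 9 livers, while Cbs was above Shmt1 (704 ± 177) in 4 of 9. All 9 lay in the upper part of the tested genes, from the 92.9th percentile for Shmt1 to the 99.3rd for Gnmt and Mat1a. With at least 1681 reads behind each value, counting error was at most 2.44%, below the smallest coefficient of variation within a genotype, 4.62% for Shmt1 in Msr1-/-.

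**Figure D4:**
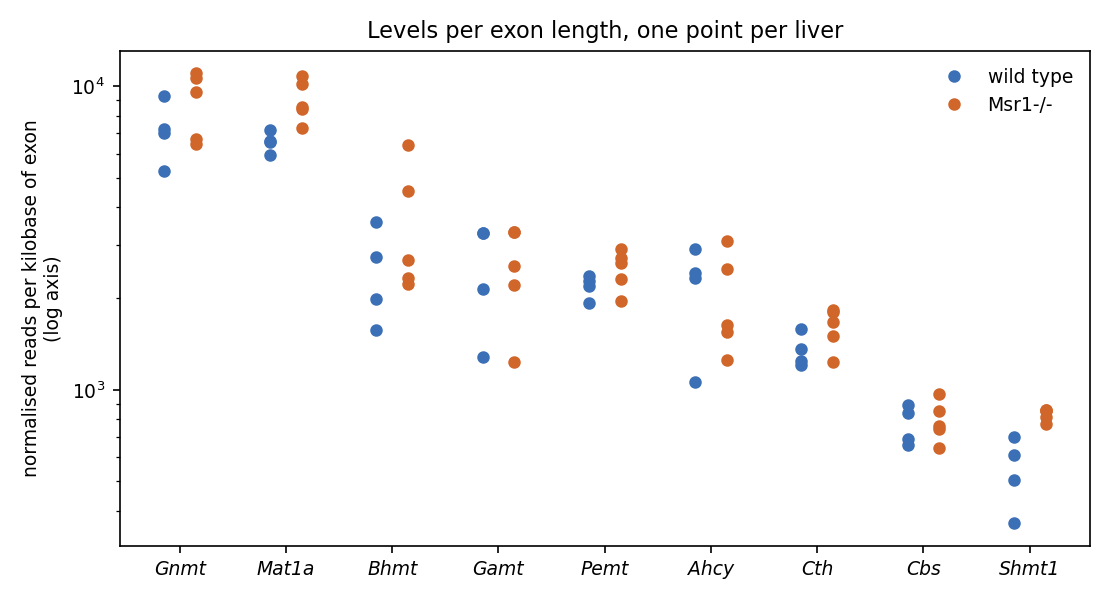
Normalised reads per kilobase of exon (log axis) in wild-type (blue) and Msr1-/- (orange) livers, one point per liver, genes ordered by their mean. Gnmt and Mat1a are highest with overlapping points, and Cbs and Shmt1 are lowest.

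The rest of the pathway was read from 9 lists by role, with 103 genes in all, of which 98 were tested. Limma called 1 of the 98 higher in Msr1-/- and 0 lower, against 0.665% and 0.703% of all tested genes. At an unadjusted limma p under 0.05, 18 were higher and 3 lower, where 7.30% and 8.0% of all tested genes were. On recovered reads DESeq2 called 6 higher and 0 lower, against 2.37% and 3.60% of all tested genes, and edgeR 1 and 0, against 0.572% and 0.858%. Without wild type 3, limma called 6 higher and 0 lower, against 2.59% and 2.32%. The genotypes did not overlap for 6 of the 98, all higher in Msr1-/-, against 3.30% of tested genes in that direction and 3.99% in the other. These 6 were Tcn2, Aldh7a1, Sardh, Slc6a13, Mtap and Adi1. The median log2 difference was 0.10 over the 98 genes.

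The called gene was Tcn2, which encodes transcobalamin, the carrier that brings vitamin B12 into cells for methionine synthase. It rose 1.51-fold, from 996, 1118, 1194 and 1197 in wild type to 1636, 1550, 1871, 1651 and 1790 in Msr1-/- (log2 0.59, SE 0.10, limma adjusted p = 0.0247). The groups were well apart, with no liver between 1197 and 1550. Tcn2 kept the call without wild type 3 or wild type 4. It lost it without wild type 1 or 2 (limma adjusted p = 0.0609 and 0.0606) and without any 1 of Msr1-/- 1 to 5 (limma adjusted p = 0.0659, 0.0671, 0.0746, 0.0703 and 0.0681), at a log2 difference of 0.54 to 0.63 throughout. Among the 13 further genes of the methionine cycle (9 with positive log2 differences, median 0.07), the receptor gene for the same carrier, Cd320, stood at 61.6 ± 8.3 in wild type and 51.8 ± 7.8 in Msr1-/- (limma adjusted p = 0.569).

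The list for choline, betaine and sarcosine had 8 of 9 log2 differences positive (median 0.26) and no call in the main limma fit. In this list, 3 of the 9 did not overlap between genotypes and were higher in Msr1-/-, against 3.30% of all tested genes. Aldh7a1, which encodes an aldehyde dehydrogenase that can make betaine, stood at 5798 ± 422 (SD, n = 4) in wild type and 8044 ± 247 (SD, n = 5) in Msr1-/-, a 1.39-fold difference with a limma adjusted p of 0.0516, and 0.0310 without wild type 3. Slc6a13, on the list though it encodes a transporter of GABA and taurine, stood at 3140 ± 88 and 4090 ± 145 (limma adjusted p = 0.0653, and 0.0355 without wild type 3). Sardh, the sarcosine dehydrogenase gene, also did not overlap, at a log2 difference of 0.50 (limma adjusted p = 0.151), and 0.35 without wild type 3 (limma adjusted p = 0.120).

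In the choline route to phosphatidylcholine, the alternative to Pemt, 7 of 9 log2 differences were positive (median 0.15). Chpt1, the choline phosphotransferase gene of its last step, stood at 2597 ± 519 in wild type and 4569 ± 1299 in Msr1-/- (log2 0.79, limma adjusted p = 0.0893). Msr1-/- 5, at 3171, was below wild type 3, at 3296, so the groups overlapped by that pair. Without wild type 3 the limma adjusted p was 0.0257. Cept1 stood at 951 ± 107 and 1115 ± 165 (limma adjusted p = 0.460).

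Downstream of Cbs and Cth, 8 of 12 tested genes of cysteine and glutathione had positive log2 differences (median 0.13). Suox, the sulfite oxidase gene, stood at 1037 ± 347 in wild type and 1551 ± 132 in Msr1-/- (limma adjusted p = 0.173, and 0.0296 without wild type 3, at a log2 difference of 0.82), and its log2 difference was 0.40 without wild type 2. Gclm, the modifier subunit gene of glutamate-cysteine ligase, stood at 2790 ± 379 and 3575 ± 332 (limma adjusted p = 0.186). Around Shmt1, 11 of 16 folate genes were positive (median 0.17), among them Fpgs, which traps folate in cells, at 1583 ± 333 and 2061 ± 156 (limma adjusted p = 0.191). The folate transporter gene Slc46a1 stood at 565 ± 60 and 670 ± 72 (limma adjusted p = 0.368).

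Among small-molecule methyltransferases and creatine genes, 5 of 9 log2 differences were negative (median -0.41, the value of Gatm), and none was called in the main limma fit. Of these 5, wild type 3 was the highest liver for Gatm (262), Ckb (183), Slc6a8 (186) and As3mt (726), and not for Nnmt. Without that liver the wild-type means of Gatm, Ckb and Slc6a8 were 131, 82.3 and 79.7, against 118, 66.1 and 61.2 in Msr1-/-. Hnmt, the histamine N-methyltransferase gene, stood at 447 ± 146 in wild type, with wild type 3 the highest of all livers at 660, and at 552 ± 53 in Msr1-/- (limma adjusted p = 0.403). Without wild type 3 its wild-type level was 375 ± 41, and Hnmt was called higher by limma (log2 0.55, adjusted p = 0.0239), as it was with array weights (adjusted p = 0.0433). Nnmt, the nicotinamide N-methyltransferase gene, went the other way, at a log2 difference of -0.52 on all 9 livers (limma adjusted p = 0.487). Its log2 difference was -0.83 without wild type 3 (limma adjusted p = 0.0624). The largest log2 difference among the 98 genes was that of Inmt, which encodes indolethylamine N-methyltransferase. Inmt stood at 14076, 10812, 5568 and 16176 in wild type and at 14578, 19545, 25810, 26264 and 28844 in Msr1-/-. Msr1-/- 1 alone lay within the wild-type range, and wild type 3 was again the lowest liver. The log2 difference was 1.05 (95% interval 0.37 to 1.73, limma adjusted p = 0.126), and DESeq2 gave an adjusted p of 0.0251. Leaving out wild type 3 lowered the log2 difference of Inmt to 0.73 (limma adjusted p = 0.0889). The arsenite methyltransferase gene As3mt stood at 493 ± 169 and 336 ± 33 (limma adjusted p = 0.246), and its log2 difference of -0.50 was -0.29 without wild type 3.

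Serine and glycine genes were split, with 6 positive and 6 negative of 12 tested (median 0.00), and Srr and Glyctk, the genes of smallest p, had limma adjusted p of 0.228 and 0.291. Methionine salvage and polyamine genes were likewise 6 and 6 (median 0.02). In that list, Mtap, which recovers methionine from polyamine synthesis, did not overlap, at 317 ± 18 and 383 ± 33 (limma adjusted p = 0.246), and Sat1, a polyamine acetyltransferase gene, stood at 1464 ± 397 and 1076 ± 80 (limma adjusted p = 0.231). Wild type 3 held 2044 of Sat1, and the log2 difference of -0.41 was -0.24 without it. In the histidine and purine steps, Uroc1 stood at 4916 ± 1325 and 7245 ± 988 (limma adjusted p = 0.153) and Gart at 165 ± 40 and 230 ± 36 (limma adjusted p = 0.230). For Uroc1 the log2 difference was 0.59, and 0.44 without wild type 3 (limma adjusted p = 0.142).

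**Figure D5:**
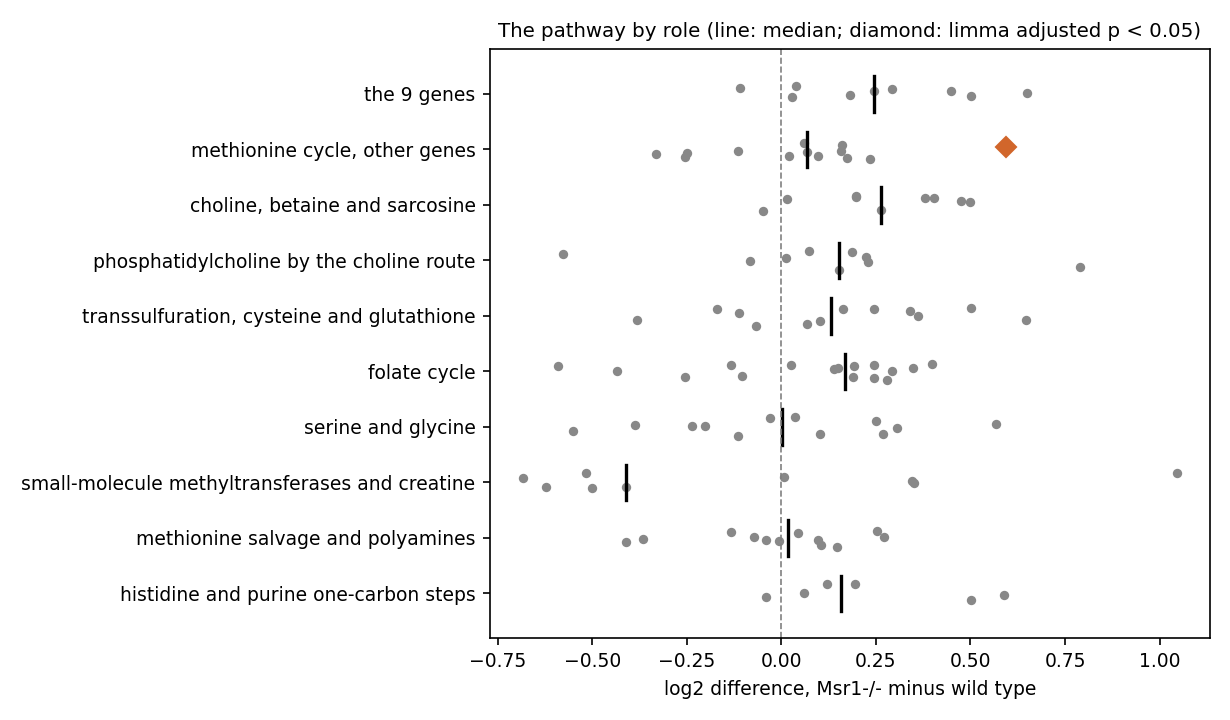
Log2 differences, Msr1-/- minus wild type, of the 9 genes and of 98 tested genes in 9 role lists, one point per gene, with the median as a black line. The diamond is Tcn2, the gene past the limma threshold.

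Among the other tested genes, those whose pattern over the 9 livers lay closest to the mean profile of the 9 genes were Pex11g, Ebpl, Rnf181, Lamtor2 and Cyth1. Their root mean square distances on the log2 scale were 0.0885, 0.0929, 0.0930, 0.0942 and 0.0999. The distances of the 9 genes themselves ran from 0.11 for Pemt to 0.38 for Ahcy and Gamt. The 5 were picked as the closest of all genes compared and the 9 were not, so the smaller distances follow from the selection. The peroxisome gene Pex11g stood at 281 ± 37 in wild type and 365 ± 57 in Msr1-/-. Without wild type 3, 2 of these 5 remained among the 5 closest, Pex11g and Rnf181.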

How the data were processed

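The authors deposited a single table of signal values, in which the reads of each gene were divided by a size factor for each liver. STAR, HTSeq, DESeq2 and mm10 appear, with no versions, in the submitters' processing notes, and the strand setting is not given in the sources used here. Each value was a whole multiple of the worth of a read in its liver (100% within 0.01 reads), so whole reads could be recovered. Limma 3.58.1 (R 4.3.3, intensity trend, genotype only) was run on log2(value + 1), which understates changes of low genes, over the 12937 genes whose mean reached 10, with Benjamini-Hochberg adjustment over all of them. Single values were compared by exact permutation of livers. EdgeR 4.0.16 and DESeq2 1.42.0 on recovered reads, other pseudocounts, filters and scalings, array weights, a block on replicate number and each liver left out were alternatives. The procedure was tested on simulated data. GENCODE M21 (GRCm38) gave coordinates and exon lengths.

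Earlier results of these data were known when the 9 genes and all lists were chosen. Genes named are Msr1, the 9 genes, called genes of the 9 role lists, the 2 with the smallest p per list and the 5 closest in pattern. Bhmt2, Sardh, Adi1, Hnmt, Nnmt, Gatm, Ckb, Slc6a8, Gclc, Smcr8 and Gm15622 were named after their values were seen, as were single markers of cell types.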

Additional observations from a re-analysis of the deposited data

Results flagged for a closer look

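Slc6a13 in Msr1-/- 5 stood at 4345 normalised reads, apart from the other Msr1-/- livers, which held 3999 to 4051. Mtap in wild type 2 stood at 290.1, below the other wild-type livers, which held 324 to 327. Each was the extreme liver of its group, and its gap to the next liver took up 0.848 (Slc6a13) and 0.916 (Mtap) of the group's range. These were 2 of 56 groups examined, 28 genes in each genotype, and chance flags about 5% of groups. The 9 genes were among the 28, and none of them was picked out in either genotype.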

How the results depend on the processing

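Bhmt, Gnmt, Pemt and Cth kept a positive log2 difference, and none passed its threshold, under 22 alternatives each. Mat1a was past its threshold in DESeq2 (0.457), in DESeq2 without wild type 3 (0.457) and by the exact test (0.449), and Shmt1 in DESeq2 (0.605), with array weights (0.554), in DESeq2 without wild type 3 (0.453) and by the exact test (0.649). The exact p-values are not adjusted over genes. Cbs was negative under quantile normalisation (-0.108), and Gamt under quantile normalisation (-0.0345), with array weights (-0.150), and without wild type 3 in edgeR (-0.212) and DESeq2 (-0.206). With each liver left out in turn, Shmt1 ran from 0.468 to 0.783, Cbs from -0.0366 to 0.112, Ahcy from -0.424 to 0.0588, Gamt from -0.259 to 0.266 and Msr1 from -0.719 to -0.306.

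Of the 9 genes, DESeq2 called 2 higher, array weights 1, DESeq2 without wild type 3 2, and limma with each liver left out 0 to 1. Of the 98 other pathway genes, the numbers called higher were 6 in DESeq2 and 6 with array weights, both on all 9 livers. Without wild type 3, edgeR called 5 higher and DESeq2 9, and limma with each liver left out called 0 to 6. DESeq2 without wild type 3 also called 1 lower, Nnmt. Called genes outside the naming rule were Hnmt (array weights and each tool without wild type 3), Sardh (DESeq2, with and without wild type 3) and Gclc (DESeq2 without wild type 3). Over all genes, limma called 86 higher and 91 lower, DESeq2 307 and 466, array weights 277 and 254, edgeR without wild type 3 304 and 352, and DESeq2 without wild type 3 539 and 520. A minimum mean of 50 left 58 lower. Leaving out each liver gave 19 to 332 higher and 17 to 297 lower, the upper ends without wild type 3. Some of these fits took in fewer genes or livers, and the cause of the differing counts was not tested.

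The labels do not say whether the replicate numbers pair the livers, and no pairing was seen in the values. Same-numbered livers had deviations correlated at 0.0246, -0.077, -0.102 and 0.218, and 0 of 4 wild-type livers was closest to its own number. Correlations of so few livers cannot exclude a pairing. With the replicate block, 8 genes were called higher and 0 lower, 0 of the 9 genes and 0 of the 98 were called higher, and Cbs stood at -0.0366. Msr1-/- 5 has no partner and adds nothing to that fit.

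The depth does not limit these values, since counting error lay below the spread between livers. The number of livers, 4 against 5, does, and intervals such as that of Gamt hold differences in either direction. The alternatives without wild type 3 in edgeR and DESeq2 were chosen after seeing the data.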
